A study of Arabidopsis thaliana with 4 samples.

Results

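The genes described here are those that make cytokinin and send it from root to shoot in Arabidopsis. They were taken as a list of loci and not by a rule on their values, though with earlier results of these data known. They comprise 6 isopentenyltransferase genes (IPT1, IPT2, IPT3, IPT5, IPT7 and IPT9), the hydroxylase genes CYP735A1 and CYP735A2 and the transporter gene ABCG14, 9 of the 33565 genes in the deposited table. All 9 had values above 0 in every library. Total RNA came from whole roots of wild-type Col-0, 7 days old, grown with 10 μM MeJA and 50 nM BAP together (JA/cytokinin), with 10 μM MeJA alone (JA), with 50 nM BAP alone (cytokinin) or with no hormone (control). BAP is a synthetic cytokinin and MeJA a jasmonate ester. The study asked how JA and cytokinin act on each other in the root, and these genes carry the question to the supply of cytokinin. There was 1 library per condition, so the differences below are between single libraries and were not tested against replicates.

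Cytokinins are adenine derivatives with a side chain. The adenylate-type isopentenyltransferases, here IPT1, IPT3, IPT5 and IPT7, join an isopentenyl group to adenine nucleotides, the first and rate-limiting step. The tRNA-type enzymes IPT2 and IPT9 modify tRNA, whose breakdown gives cis-zeatin. CYP735A1 and CYP735A2 are cytochrome P450 enzymes that hydroxylate the isopentenyl side chain and so make trans-zeatin forms. ABCG14 is a membrane exporter of the root vasculature needed to load trans-zeatin forms into the xylem for the shoot. Transcripts of the adenylate-type IPT genes are known to be lowered by cytokinin, and CYP735A transcripts to be raised by it.

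The libraries held 98605532 to 115141812 reads. Levels are in FPKM, sequenced fragments scaled to exon length and to the size of the library. By an estimate from the lowest FPKM values, 86.8% to 91.7% of read pairs were mapped and 3 fragments on 1 kb correspond to 0.0600 to 0.0665 FPKM. Intervals below treat estimated fragments as Poisson counts at the 95% level, and they cover counting error alone. They are exact, save that a normal approximation was used for a difference of log2 ratios. The treatments were visible in the marker lists. The 5 jasmonate response genes summed to 848 and 919 FPKM with JA/cytokinin and JA, against 123 with cytokinin and 57.8 in control roots. With cytokinin against control 2 of the 4 measured in all libraries were at least 2-fold higher and none lower (5.19% and 9.77% of all genes). Of the 8 type-A ARR genes, which respond to cytokinin, only 1 was at least 2-fold higher in that comparison and none lower, with a median log2 ratio of 0.64. These 8 summed to 707, 292, 598 and 392 FPKM with JA/cytokinin, JA, cytokinin and in control roots. All 10 root markers were above 0 in every library, and summed to 208, 171, 492 and 487 FPKM in the same order. Much of that sum was 1 gene, CASP1, at 83.8, 65.4, 218 and 243 FPKM. With JA against control 5 of the 10 were at least 2-fold lower and 1 was higher (11.3% and 9.32% of all genes). The control library stood apart in the 11 shoot markers of leaf polarity and stomata, which summed to 17.5 FPKM there with none at 0, against 0.641, 0.532 and 0.323 FPKM in the JA/cytokinin, JA and cytokinin libraries, where 6, 7 and 8 of them were at 0. Their part in the ratios to control was not tested. Ratios that leave the control library out are given beside the main ones. They compare each hormone with the other present, so leaving out control and adding the other hormone cannot be told apart in them. The share of summed FPKM on 4 rRNA genes was 4.89% with JA/cytokinin and 0.614% to 1.28% elsewhere, and its part in the JA/cytokinin ratios was not tested.

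The members lie on chromosomes 1, 2, 3 and 5, and the copies are distinct enough to be counted apart. None of the 50-base windows in their exons occurs a further time in the genome. Over the 15 pairs of IPT genes the aligned coding sequences were 61.4% to 66.1% identical, with no shared run longer than 18 bases. CYP735A1 and CYP735A2 were closer, at 77.0% over 1536 aligned bases. Their longest identical run is 36 bases near the end of the coding sequence, shorter than a read of 101 bases. It is shown because it is the longest coding stretch in which the pair cannot be told apart.
CYP735A1 (chr5:15394027-15394062, minus strand) and CYP735A2 (chr1:25061863-25061898, minus strand), coding strand: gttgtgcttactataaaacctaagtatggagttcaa
Coordinates and sequences are those of RefSeq in TAIR10.1. The ABCG14 gene (chromosome 1 from 11374760 to 11377885) overlaps its neighbour AT1G31772 by 7 bases, and no other member overlaps an annotated gene.

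IPT3 (AT3G63110, chromosome 3 from 23317971 to 23319636, a single exon) is the adenylate-type gene of the phloem. It had 18.1 FPKM with JA/cytokinin, 9.38 with JA, 6.04 with cytokinin and 8.31 in control roots. The JA/cytokinin library stood well above the other 3. JA/cytokinin roots were 2.17-fold above control (95% interval 1.97 to 2.40) and 2.99-fold above cytokinin (2.68 to 3.35), while JA alone was 1.13-fold above control (1.01 to 1.27) and cytokinin alone 1.38-fold below it (1.21 to 1.57). Here as elsewhere in bulk roots, more cells of a type and more RNA per cell cannot be told apart. All 5 phloem markers were above 0 in every library, and their summed level moved in the same direction as IPT3 with JA, at 121 FPKM with JA/cytokinin, 68.9 with JA, 36.4 with cytokinin and 34.5 in control roots. Set against that sum, IPT3 was 14.9%, 13.6%, 16.6% and 24.1% in the same order, so that relative to these markers it was lower in all 3 treatments than in control roots. The part of phloem in the IPT3 values was not tested.

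IPT5 (AT5G19040, chromosome 5 from 6361776 to 6363713), known from lateral root primordia and the root cap, ran the other way. It had 2.27 FPKM with JA/cytokinin, 5.78 with JA, 2.64 with cytokinin and 12.0 in control roots, so that control was the highest and both libraries with cytokinin the lowest. Cytokinin was 4.53-fold below control (95% interval 3.88 to 5.31), JA/cytokinin 5.26-fold below control (4.49 to 6.19), and JA 2.07-fold below control (1.85 to 2.32). Without the control library the cytokinin difference stayed past 2-fold, with JA/cytokinin 2.54-fold below JA (2.14 to 3.03). JA/cytokinin was 1.16-fold below cytokinin (0.946 to 1.42). A JA difference past 2-fold was thus seen against control and not between the libraries that both had cytokinin. The control library and the absence of cytokinin cannot be told apart here. With a pseudocount of 1 FPKM the JA difference against control was also under 2-fold (log2 -0.93). The 3 root cap markers summed to 24.6, 12.1, 22.2 and 19.0 FPKM with JA/cytokinin, JA, cytokinin and in control roots. They were thus lowest with JA and highest in the libraries with cytokinin. Set against that sum IPT5 was 9.25%, 47.7%, 11.9% and 62.9% in the same order, so with JA it was nearer to control relative to these markers than in FPKM. The part of the root cap in the IPT5 values was not tested.

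IPT7 (AT3G23630, chromosome 3 from 8488695 to 8490266, a single exon) resembled IPT5 at a lower level, with control highest, JA next and both libraries with cytokinin lowest. It had 0.161 FPKM with JA/cytokinin, 0.373 with JA, 0.130 with cytokinin and 1.58 in control roots, from an estimated 11.4, 24.8, 8.28 and 101 fragments. Cytokinin was 12.2-fold below control (95% interval 6.01 to 28.5) and JA 4.23-fold below (2.71 to 6.86), the JA difference being under 2-fold with a pseudocount of 1 FPKM (log2 -0.91). Without the control library, and so with cytokinin present, the JA difference was not seen, with JA/cytokinin 1.24-fold above cytokinin (0.464 to 3.49). JA/cytokinin was 2.31-fold below JA (1.10 to 5.14), a much smaller difference than that to control and one that a pseudocount of 0.1 FPKM brought under 2-fold. At levels this low large ratios are common. Of the 2230 genes with the lowest mean level, 43.9% were past 2-fold between cytokinin and control, and 122 were as far apart as IPT7. IPT1 (AT1G68460, chromosome 1 from 25668610 to 25670345) was the lowest member, at 0.0986, 0.194, 0.0623 and 0.172 FPKM with JA/cytokinin, JA, cytokinin and in control roots, from 4.44 to 14.4 estimated fragments. Its cytokinin value was 2.76-fold below control, but the interval of 0.872 to 10.8 includes no difference. IPT4, IPT6 and IPT8, the remaining IPT genes of the family, were listed at 0 in all 4 libraries.

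**Figure D1:**
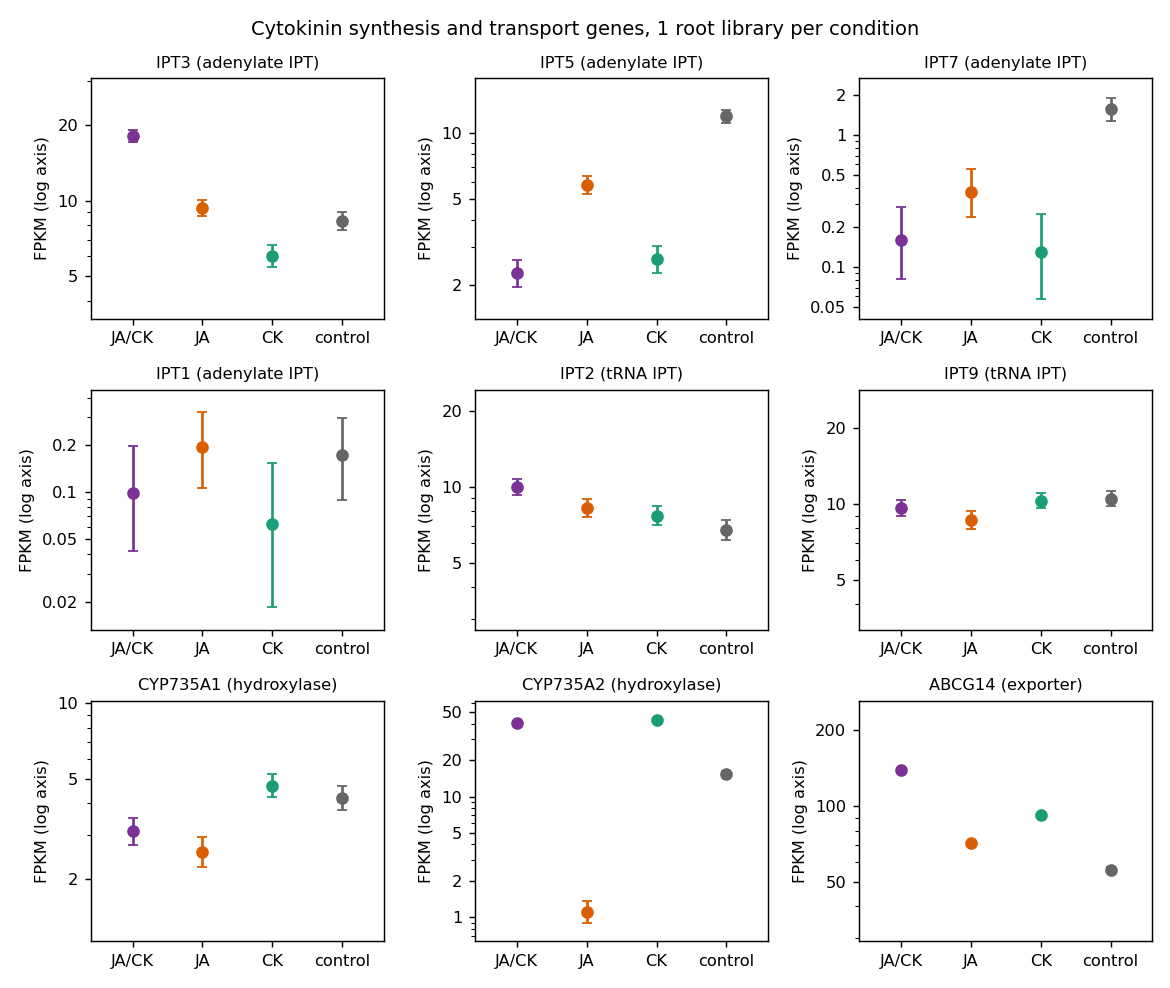
FPKM of the 9 genes on log axes, each panel with its own range, in the JA/cytokinin (JA/CK), JA, cytokinin (CK) and control libraries. Points are single libraries and bars 95% counting intervals. IPT5 and IPT7 are highest in control, IPT3 and ABCG14 with JA/cytokinin, and CYP735A2 is far lowest with JA, at 1.11 FPKM.

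The 250 bases before the annotated start of IPT5 are shown because they held the only G-box found in the 8 windows searched. Capitals mark matches, on either strand, to AGATT, the core that type-B ARR activators bind, or to CACGTG, the G-box that MYC2, the JA transcription factor, binds.
IPT5 (chr5:6363714-6363963, minus strand): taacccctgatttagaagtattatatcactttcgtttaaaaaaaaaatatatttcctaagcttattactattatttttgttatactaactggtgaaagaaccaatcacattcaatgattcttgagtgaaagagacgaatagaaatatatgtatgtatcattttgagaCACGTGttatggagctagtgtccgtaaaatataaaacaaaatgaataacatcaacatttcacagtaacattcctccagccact
IPT5 held a G-box 83 bases before the start and no match to AGATT. The type-B ARR core occurs in 69.7% of 27443 windows from 250 bases before to 50 after the start of a protein-coding gene, and in 4 of the 8 members searched. The G-box occurs in 7.68% of windows, and IPT5 was the only one of the 8 with a match. Neither the longer form AGATCTT (4.23% of windows) nor the G-box variant CACATG (12.9%) occurred in any of the 8. AGATT and AGATCTT, and the G-box and CACATG, cannot cover the same bases.

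Together the adenylate-type genes had 20.6 FPKM with JA/cytokinin, 15.7 with JA, 8.87 with cytokinin and 22.0 in control roots. Because FPKM is per length, shares of such a sum can be read between genes. With JA/cytokinin IPT3 made up 87.7% of the sum and IPT5 11.0%, against 37.7% and 54.3% in control roots. IPT3 was also the larger with JA, at 59.6%, and with cytokinin, at 68.1%. The sum with JA/cytokinin was thus 1.07-fold below that of control roots while its make-up was different, and cytokinin alone had a sum 2.48-fold below control. IPT7 made up 0.784%, 2.37% and 1.46% with JA/cytokinin, JA and cytokinin, against 7.17% in control roots.

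The tRNA-type genes stayed within 2-fold in every comparison, as most genes did, with 15.0% to 23.0% of all genes past it. IPT2 (AT2G27760, chromosome 2 from 11824772 to 11827609, 10 exons) had 9.97 FPKM with JA/cytokinin, 8.27 with JA, 7.68 with cytokinin and 6.76 in control roots. IPT9 (AT5G20040, chromosome 5 from 6767701 to 6771190, 11 exons, 3 transcripts in the table) had 9.64, 8.64, 10.3 and 10.5 FPKM in the same order. The highest and lowest library differed 1.47-fold for IPT2 and 1.22-fold for IPT9, and IPT9 had the narrowest range of the 9 genes. Their sum lay between 16.9 and 19.6 FPKM in all 4 libraries.

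**Figure D2:**
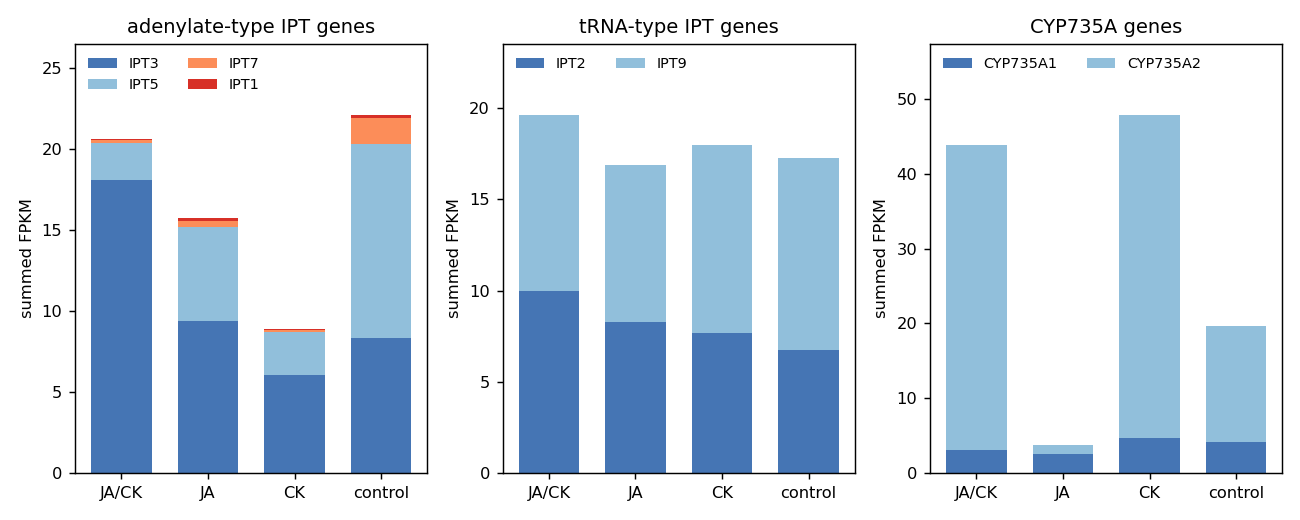
Summed FPKM of the adenylate-type IPT genes, the tRNA-type IPT genes and the CYP735A genes by library, stacked by gene, with bars starting at 0. The adenylate-type sum is 20.6 with JA/cytokinin and 22.0 in control, with IPT3 the larger part in JA/cytokinin and IPT5 in control, and the CYP735A sum is 3.68 with JA.

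CYP735A2 (AT1G67110, chromosome 1 from 25061673 to 25065446) varied most of the 9 genes. It had 40.7 FPKM with JA/cytokinin, 1.11 with JA, 43.1 with cytokinin and 15.5 in control roots. The JA library was far below the rest, and the libraries with cytokinin lay above control whether or not JA was present. JA was 13.9-fold below control (95% interval 11.2 to 17.6), and of the 22291 genes measured in all libraries 147 had a lower ratio. Cytokinin was 2.78-fold above control (2.60 to 2.98). JA/cytokinin was 36.7-fold above JA (29.6 to 46.0), a ratio that 16 genes exceeded and that does not involve the control library. It shares with the ratio of JA to control the single JA value, from an estimated 85.4 fragments, so these are not separate observations. JA/cytokinin was 1.06-fold below cytokinin (1.01 to 1.11), so that with cytokinin present the libraries with and without JA were nearly level. Of the 8 type-A ARR genes 4 were at least 2-fold lower with JA against control (11.3% of all genes), with a median log2 ratio of -0.85, and 1 was lower with JA/cytokinin against cytokinin (7.80% of all genes), with a median of 0.31. CYP735A2 was 5.76%, 0.380%, 7.20% and 3.94% of their summed FPKM with JA/cytokinin, JA, cytokinin and in control roots.

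CYP735A1 (AT5G38450, chromosome 5 from 15393720 to 15397295), the closest copy, did not share these differences. It had 3.10 FPKM with JA/cytokinin, 2.57 with JA, 4.71 with cytokinin and 4.20 in control roots, and no pair of libraries among those compared was 2-fold apart. Its values were lower in both libraries with JA than in both without. JA was 1.64-fold below control (95% interval 1.37 to 1.95), and JA/cytokinin 1.52-fold below cytokinin (1.30 to 1.79). The order of the pair turned round with JA. CYP735A2 was 13.1, 9.14 and 3.68 times CYP735A1 with JA/cytokinin, with cytokinin and in control roots, whereas with JA CYP735A1 was 2.31 times CYP735A2. The pair summed to 43.8 FPKM with JA/cytokinin, 3.68 with JA, 47.8 with cytokinin and 19.7 in control roots.

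The 250 bases before the starts of the CYP735A pair are shown because these close copies differed so much with JA, with capitals as above.
CYP735A2 (chr1:25065447-25065696, minus strand): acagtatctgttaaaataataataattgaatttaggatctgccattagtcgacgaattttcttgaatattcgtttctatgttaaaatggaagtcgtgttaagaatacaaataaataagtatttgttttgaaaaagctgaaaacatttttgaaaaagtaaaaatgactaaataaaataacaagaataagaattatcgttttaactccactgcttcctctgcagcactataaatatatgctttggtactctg
CYP735A1 (chr5:15397296-15397545, minus strand): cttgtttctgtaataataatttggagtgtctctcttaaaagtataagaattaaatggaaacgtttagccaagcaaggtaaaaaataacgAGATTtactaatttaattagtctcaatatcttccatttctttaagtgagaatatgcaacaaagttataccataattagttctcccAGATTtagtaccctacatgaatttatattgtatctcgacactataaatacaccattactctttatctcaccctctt
Those of CYP735A2 held none of the 4 motifs searched, nor did the 50 bases after its start. CYP735A1 held AGATT 161 and 76 bases before the start, and in reverse 23 bases after it. No match says only that these letters are not in this window.

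ABCG14 (AT1G31770, 5 exons) was the most abundant member in every library. It had 139 FPKM with JA/cytokinin, 71.4 with JA, 92.5 with cytokinin and 55.7 in control roots, above 95.7%, 90.6%, 92.9% and 88.0% of the genes detected in those libraries. All 3 treatments lay above control and the library with both hormones was the highest. JA/cytokinin was 2.50-fold above control (95% interval 2.43 to 2.58), 1.95-fold above JA (1.90 to 2.00) and 1.51-fold above cytokinin (1.47 to 1.54). Cytokinin was 1.66-fold and JA 1.28-fold above control. The 139 FPKM measured with both hormones was 1.18-fold above the 119 FPKM that the product of the single-hormone ratios gives. Set against the summed phloem markers, which are also vascular, ABCG14 was 115%, 104%, 254% and 161% with JA/cytokinin, JA, cytokinin and in control roots, and the part of these cells in its values was not tested.

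Read by comparison, 1 to 5 of the 9 genes were past 2-fold, and they went both ways. With JA against control 3 of the 9 were at least 2-fold lower (CYP735A2, IPT7 and IPT5) and none higher, where 11.3% of all genes were lower and 9.32% higher (20.6% either way). With cytokinin against control 3 were lower (IPT7, IPT5 and IPT1) and 1 was higher (CYP735A2), where 9.77% of all genes were lower and 5.19% higher (15.0% either way). With JA/cytokinin against control IPT7 and IPT5 were lower and CYP735A2, ABCG14 and IPT3 higher, with 11.6% of all genes lower and 11.4% higher (23.0% either way). In the comparisons without the control library, JA/cytokinin against cytokinin had IPT3 higher (10.2% of all genes) and no member lower (7.80%, and 18.0% either way), and JA/cytokinin against JA had CYP735A2 higher (8.48%) and IPT5 and IPT7 lower (9.10%, and 17.6% either way). The median log2 ratio of the 9 genes in these 5 comparisons was -0.29, -0.03, -0.13, 0.31 and 0.27, and that of all genes -0.02, 0.05, 0.04, 0.04 and 0.04. The medians of the second, the third and the fourth comparison change sign when the members of lowest level are left out. The first 3 comparisons share the control library and the last 3 the JA/cytokinin library. JA against control and JA/cytokinin against JA share the JA library. The cytokinin library is shared by cytokinin against control and JA/cytokinin against cytokinin.

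**Figure D3:**
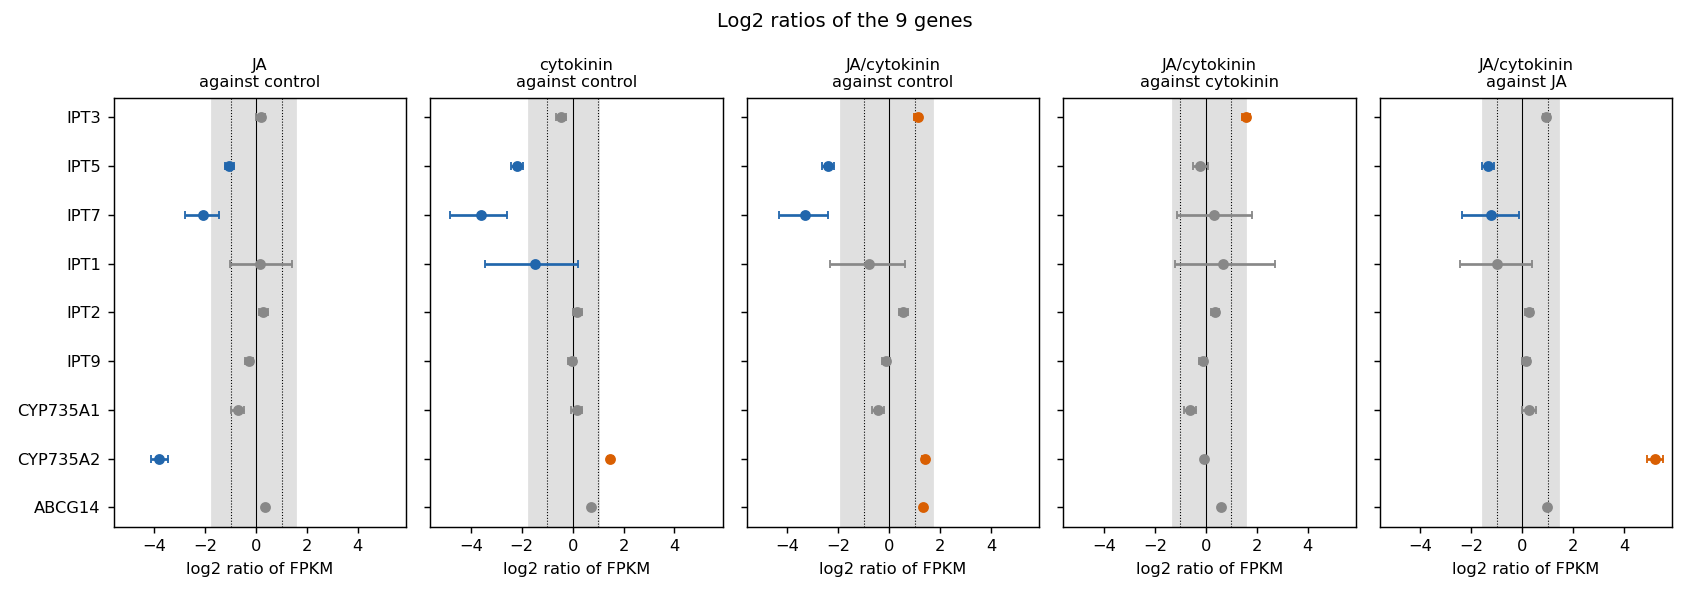
Log2 ratio of FPKM for each gene in the 5 comparisons, with 95% counting intervals. Grey bands hold the middle 90% of the 22291 genes, dotted lines mark 2-fold, and colours mark genes past it (orange higher, blue lower). CYP735A2 lies outside the band at -3.80 with JA against control and at 5.20 with JA/cytokinin against JA.

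Each hormone was also compared without and with the other, in pairs of libraries that share none. The JA difference of CYP735A2 was -3.80 on the log2 scale without cytokinin and -0.08 with it. That of IPT7 was -2.08 and 0.31, that of IPT5 -1.05 and -0.21, and that of IPT3 0.18 and 1.58. In all 9 genes the difference was higher with cytokinin than without, by 0.09 (IPT2) to 3.72 (CYP735A2), and over all 22291 genes the median was 0.03 and the middle 90% ran from -1.02 to 1.51. The change was at least 2-fold in 3 members, CYP735A2, IPT7 and IPT3, and in 14.1% of all genes. CYP735A2 lay above 99.4% of all genes in this measure, IPT7 above 98.0% and IPT3 above 94.3%. The IPT7 change of 2.4 rests on few fragments, at a level where large ratios are common. Its counting interval, 0.96 to 3.83, reaches below 2-fold. All 9 values come from the same 4 libraries, the control included, so their shared direction is not 9 independent observations. For each gene, the change in its cytokinin difference with JA is the same number as the change in its JA difference with cytokinin. The cytokinin difference of IPT5 was -2.18 without JA and -1.35 with it, and that of IPT7 -3.60 and -1.21, below 0 in both. For CYP735A2 it was 1.48 and 5.20 and for ABCG14 0.73 and 0.97, above 0 in both. Only IPT3 and IPT9 had opposite signs, -0.46 and 0.94 for IPT3, and -0.03 and 0.16 for IPT9, whose value without JA has an interval that includes 0.

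**Figure D4:**
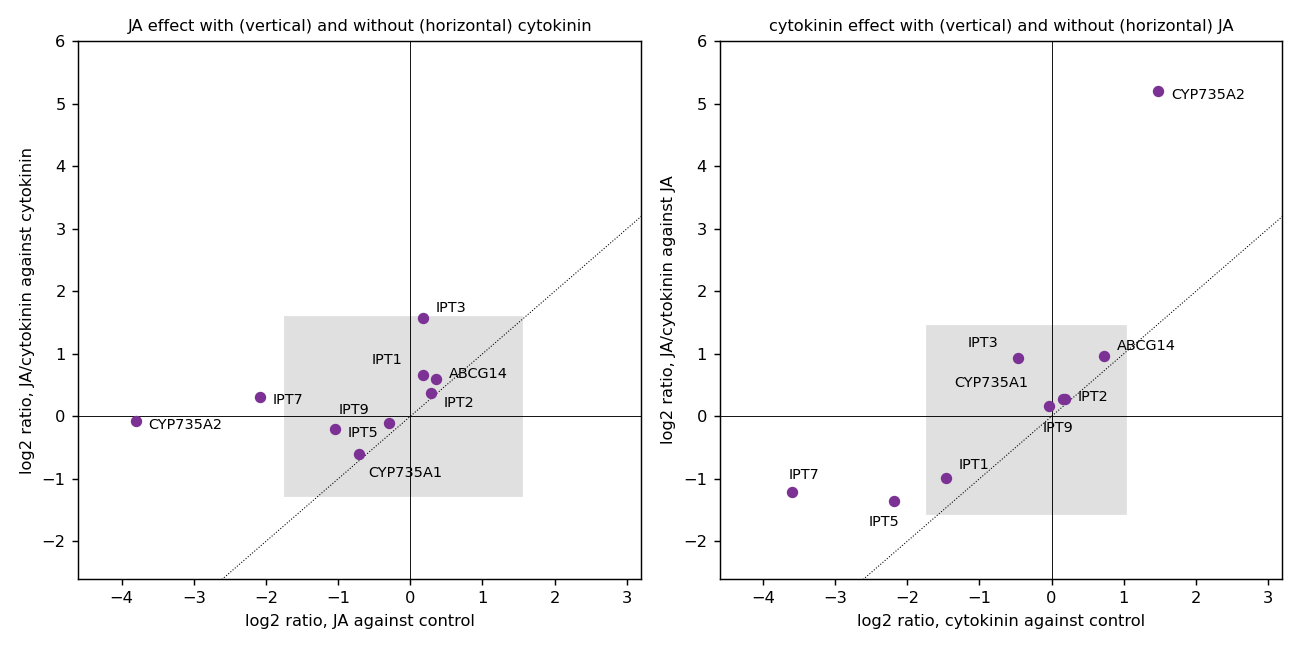
Log2 ratio of each gene for 1 hormone with the other present (vertical) against the same without it (horizontal), JA at left and cytokinin at right. The grey box spans the middle 90% of all genes on each axis and the dotted line marks equal ratios. CYP735A2 and IPT7 lie left of the box for JA, near 0 on the vertical axis.

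The members were also compared by their course over the 4 libraries. By the distance between log2 FPKM centred on each gene's own mean, IPT5 and IPT7 were each nearest to the other, at 1.04. IPT9 and CYP735A1 were also nearest to each other, at 0.49. CYP735A2 was the farthest from each of the other 8, with CYP735A1 the nearest at 3.83. The range from the lowest to the highest library was 38.8-fold for CYP735A2, 12.2-fold for IPT7, 5.26-fold for IPT5, 3.11-fold for IPT1, 2.99-fold for IPT3, 2.50-fold for ABCG14 and 1.83-fold for CYP735A1.

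Genes that act after these steps were examined as lists. LOG enzymes release the free base from cytokinin nucleotides, and 8 of 9 were measured in all libraries. With JA against control 4 were at least 2-fold higher and 1 was lower (9.32% and 11.3% of all genes), with a median log2 ratio of 0.41. Without the control library, JA/cytokinin against cytokinin had 3 higher and 2 lower (10.2% and 7.80% of all genes) and a median of -0.10, so the list had no single direction with JA. With cytokinin against control 4 were at least 2-fold lower and 1 was higher (9.77% and 5.19% of all genes), with a median of -0.74. With JA/cytokinin against JA again 4 were lower and 1 was higher (9.10% and 8.48% of all genes), with a median of -0.87. LOG1, at 0.284, 1.30, 0.605 and 5.75 FPKM with JA/cytokinin, JA, cytokinin and in control roots, was lower with each hormone in both backgrounds. LOG8, at 85.0, 72.2, 41.9 and 31.1 FPKM in the same order, was higher with JA in both, as was LOG3 at 4.11, 1.60, 0.774 and 0.776 FPKM. LOG4, at 1.22, 2.86, 0.410 and 1.28 FPKM, was higher with JA and lower with cytokinin, and LOG5 was near the limit of detection, at 0.0721 to 0.268 FPKM over the libraries. CKX enzymes degrade cytokinin. Of the 7, 5 were higher with cytokinin against control (5.19% of all genes) and 6 with JA/cytokinin against JA (8.48% of all genes), none was lower in either, and the medians were 1.2 and 1.72. With JA against control 1 was higher and 2 were lower (9.32% and 11.3% of all genes). In JA/cytokinin against cytokinin 1 was higher and none lower (10.2% and 7.80% of all genes). CKX1 (2.66 with JA/cytokinin, 0.584 with JA, 4.41 with cytokinin and 1.41 FPKM in control roots), CKX3, CKX5 and CKX6 were past 2-fold higher with cytokinin in both backgrounds. Of the purine and nucleoside carriers of the PUP, ENT and AZG families, 6 of 9 were measured in all libraries, of which 2 were lower and none higher with JA against control (11.3% and 9.32% of all genes), and 2 lower and 1 higher with cytokinin against control (9.77% and 5.19% of all genes). Without the control library 2 were lower and none higher with either hormone, where 7.80% of all genes were lower in JA/cytokinin against cytokinin and 9.10% in JA/cytokinin against JA. PUP2 had 0.0434, 0.0969 and 0.101 FPKM with JA/cytokinin, JA and cytokinin, values that rest on few fragments, against 0.528 in control roots. APT1, ADK1 and ADK2, which salvage adenine and adenosine, stayed within 2-fold in every comparison. Most genes did so, with 15.0% to 23.0% of all genes past 2-fold by comparison.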

How the data were processed

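The authors made paired-end libraries from polyA RNA, calculated FPKM with Cufflinks and deposited 1 value per gene and library. The submitters' processing notes name Bowtie and TAIR10, with versions and strand setting not given in the sources used here. The deposited read count of each library is from before alignment, and 3 deposited percent columns without a heading were not used. Ratios were taken between FPKM values without a pseudocount, and a gene was called at 2-fold, over the 22291 genes detected in every library. Mapped fragments were estimated from the FPKM step of a single fragment over 25886 genes with 1 transcript in the table, with TAIR10.1 exon lengths less a fragment length of 160. In the range of 1 to 5 fragments, 60.4% to 61.9% of values fell within 0.1 of a whole number, so fragment numbers are approximate. Intervals are exact Poisson for levels and conditional binomial for ratios, and a normal approximation for a difference of log2 ratios. PCR copies are not independent molecules. Column names gave each library its condition. The named genes are all 9 members, list members past 2-fold with a hormone in both backgrounds, and the most alike genes. Members and lists were chosen with earlier results of these data known. Promoter windows ran from 250 bases before to 50 after the start, and 1 member's window is not reported here. Alternatives were pseudocounts, filters, scalings and thresholds. Steps were tested on simulated data, in Python 3.11.15 (scipy 1.17.1, numpy 2.4.6, matplotlib 3.10.9, pandas 2.3.3).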

Additional observations from a re-analysis of the deposited data

Results flagged for a closer look

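The cytokinin difference of IPT3 changed sign with the background. It was -0.46 on the log2 scale for cytokinin (6.04 FPKM) against control (8.31 FPKM) and 0.94 for JA/cytokinin (18.1 FPKM) against JA (9.38 FPKM), and the 95% counting interval of each excludes 0. The difference between them was 1.4 (1.18 to 1.63 by counting error), with 1 library per condition, and was not tested. It is the same number as the change in the JA difference of IPT3, from 0.18 to 1.58, and not a further observation. The phloem markers summed to 36.4 FPKM with cytokinin against 34.5 in control roots, and to 121 with JA/cytokinin against 68.9 with JA.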

How the results depend on the processing

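No paired analysis was possible because conditions were not replicated, which also left no replicate to leave out. Of the 16 calls past 2-fold among 45 ratios of single members, a pseudocount of 0.1 FPKM removed 2 (IPT1 with cytokinin against control and IPT7 with JA/cytokinin against JA) and one of 1 FPKM removed these and those of IPT5 and IPT7 with JA against control, 4 in all, and none of the 16 reversed under any pseudocount or scaling. With 1 FPKM the CYP735A2 ratios fell in size but stayed past 2-fold, at -2.96 with JA against control and 4.31 with JA/cytokinin against JA. Either rescaling added a single call, IPT1 with JA/cytokinin against JA at -1.04. The members past 2-fold with JA against control, 3 as reported, became 1 with a pseudocount of 1 FPKM (CYP735A2). The share of all genes went from 20.6% to 11.5%. Without the control library, a setting chosen after seeing the data, each hormone was compared with the other present. The JA comparison then had 1 member past 2-fold (IPT3, higher, where 18.0% of all genes were past it either way). Its median was 0.31 in place of -0.29, and that of the cytokinin comparison 0.27 in place of -0.03. With a mean of at least 1 FPKM, which leaves 7 members, 2 in place of 4 were past 2-fold with cytokinin. The share of all genes went from 15.0% to 11.5% under that filter. At 3-fold the count was 2 for cytokinin and 2 for JA/cytokinin against control (7.59% and 12.6% of all genes). For JA/cytokinin it was 0 against cytokinin and 1 against JA (8.31% and 9.04% of all genes). At 1.5-fold it was 4 against cytokinin and 6 against JA (34.8% and 31.5% of all genes). Without IPT2 and IPT9 the median was -0.46 for cytokinin and -0.44 for JA/cytokinin against control. Filters turned the sign of medians near 0. With at least 1 FPKM in some library and with a mean of at least 1 FPKM, the median was 0.07 and 0.16 for cytokinin and 0.22 and 0.56 for JA/cytokinin against control, and with the mean filter it was -0.08 for JA/cytokinin against cytokinin. The number of ratios whose counting interval excludes no difference, 34 of 45, was 34 with no fragment length taken off. That number includes ratios as small as 1.06-fold (CYP735A2 with JA/cytokinin against cytokinin). The share over all genes was not computed, so it is no measure of response. The cause of the changes between settings was not tested beyond the genes that a filter leaves out. At this depth IPT1 and IPT7 rest on few fragments.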

Other observations

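The genes most like CYP735A2 over the 4 libraries, among 17856 genes of at least 1 FPKM in each, were AT5G37990, AT1G77530, AT4G35160, AT3G26460 and AT2G47200, at distances of 0.80 to 1.26 on the centred log2 scale. AT5G37990, a methyltransferase family gene, had 99.1 FPKM with JA/cytokinin, 4.67 with JA, 209 with cytokinin and 44.6 in control roots. AT1G77530 and AT4G35160, both annotated as O-methyltransferase family genes, had 23.9 and 43.3 FPKM with JA/cytokinin, 1.75 and 3.73 with JA, 37.7 and 80.3 with cytokinin, and 10.8 and 35.7 in control roots. All 5 were lowest with JA, which follows from choosing them for likeness to CYP735A2. With 4 libraries such likeness is a description of these libraries.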
